A study of Homo sapiens with 12 samples.

Results

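The comparison described here sets 3 arrays of AE9a-expressing K562 cells against 3 arrays of wild type K562 cells, all nucleofected with an siRNA against PRMT1 (siPRMT1). K562 is an established human erythroleukemia line that keeps an erythroid and megakaryocytic expression program. The study arrayed 12 samples in all, 3 for each of 4 groups, since both lines were also given a control siRNA, and its title asks how PRMT1 and AML1-ETO act together in transcription. Cells received 3 µg of siRNA and were harvested after 24 hours. Both groups compared here therefore carry the siPRMT1 treatment and differ by line. The labels leave out whether the AE9a line is a clone or a pool, which vector or promoter drives AE9a, or whether the wild type cells carry an empty vector, so AE9a and other differences between the lines cannot be told apart. Whether a group's 3 arrays stem from separate cultures is not stated either, so the p-values reflect the spread among these arrays, and this may be technical spread. Of 20046 gene symbols on the array, 13929 had at least 1 probe bright enough to test, and each is described by its brightest such probe.

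AE9a is a shortened isoform of AML1-ETO, that is, of the fusion of the DNA-binding runt domain of RUNX1 to the corepressor RUNX1T1 (ETO) that arises in acute myeloid leukemia. RUNX1 is a transcription factor of blood cell formation, and the fusion can repress or activate genes through RUNX motifs. PRMT1 methylates arginine residues of histone H4 and of other proteins, and this histone mark is associated with active genes.

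PRMT1, the target of the siRNA, differed between the lines. Its probe read 1269.7, 1004 and 902 in the 3 wild type siPRMT1 arrays and 461, 468 and 526 in the 3 AE9a siPRMT1 arrays. Under control siRNA it read 1166, 1339 and 1832 in wild type and 794, 817 and 695 in AE9a cells. The AE9a values lay below every wild type value under siPRMT1, while the wild type siPRMT1 and control values overlapped each other. The line difference under siPRMT1 was -1.03 ± 0.16 log2 units (AE9a minus wild type, ± SE, 3 arrays against 3, limma adjusted p = 2.5e-04), and under control siRNA it was -0.89 (limma adjusted p = 7.8e-04). The siPRMT1 groups thus also differ in the amount of remaining PRMT1 RNA, and its part in the other differences was not tested.

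Of the 2 fusion partners, RUNX1T1 was at background and RUNX1 slightly higher in AE9a cells. RUNX1T1 read 65.4, 67.9 and 68.1 in wild type and 65.1, 69.5 and 67.2 in AE9a cells. These values overlapped and, apart from 1 AE9a array, stayed below the level of olfactory receptor probes, which stands in for background here and lay between 66.7 and 74.2 across the 6 arrays. RUNX1 read 208, 168 and 151 in wild type and 201, 235 and 278 in AE9a cells, a difference of 0.45 ± 0.13 log2 units (limma adjusted p = 0.022) on overlapping raw values. That call was lost when wild type array 2 or 3 or AE9a array 2 or 3 was left out (adjusted p from 0.0537 to 0.109). Where the probes lie relative to the parts of both genes that AE9a keeps was not analysed here, so they do not check the label.

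The arrays separated by line. The first principal component of the 6 arrays held 75.6% of the variance and placed the wild type arrays between -42.9 and -41.0 and the AE9a arrays between 41.6 and 42.3. Correlations of normalized log2 intensity lay between 0.986 and 0.996 within a group and between 0.958 and 0.965 across the lines. The median raw intensity was 60.5 to 67.6 per array. Over the 13929 genes the median line difference was -0.01 log2 units, with quartiles at -0.21 and 0.19.

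At an adjusted p under 0.05, 2030 genes (14.6% of those tested) were higher and 2262 (16.2%) lower in AE9a cells, 30.8% in either direction. The 3 values of one line lay wholly above those of the other for 6375 genes (45.8%). Most called differences were small: 442 genes (3.17%) were called and at least 2-fold higher, and 405 (2.91%) at least 2-fold lower. The largest differences leaned upward, with 45 called genes higher by 3 or more log2 units against 15 lower, and 8 against 2 beyond 5 log2 units. Of the risers, 225 exceeded this olfactory receptor level in all 3 AE9a arrays and in none of the wild type arrays, and 200 fallers showed the reverse. Fewer cells with a transcript and less RNA per cell cannot be told apart in these bulk samples.

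**Figure D1:**
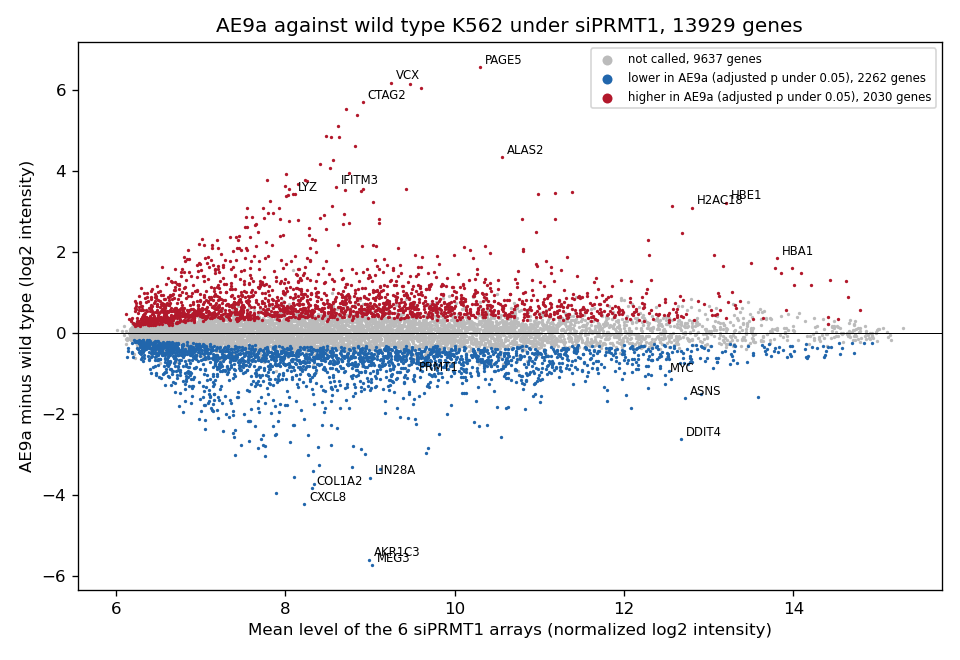
Each point is a gene, with the mean normalized log2 intensity of the 6 siPRMT1 arrays on the horizontal axis and the log2 difference of AE9a minus wild type on the vertical axis. The 2030 genes higher in AE9a reach 6.55 (PAGE5) and the 2262 lower genes reach -5.73 (MEG3), while 9637 genes in grey were not called.

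Testis-restricted genes of the X chromosome made up most of the largest rises. PAGE5, a cancer-testis antigen of the PAGE family, read 98.0, 152 and 99.2 in wild type and 14433, 12741 and 10680.0 in AE9a cells, a rise of 6.55 ± 0.15 log2 units or 93.6-fold (limma adjusted p = 8.5e-13). VCX, a gene of male germ cells, read 60.9, 61.4 and 53.1 in wild type cells, below the olfactory receptor level, and 5578, 5322 and 4776 in AE9a cells, at least 60.2-fold higher (limma adjusted p = 8.5e-12). In the wild type line VCX was at background and PAGE5 a little above it, and both were bright in every AE9a array. The sequence before the PAGE5 start site is shown because, among the 15 largest rises, it alone had a promoter entry that holds the core letters of the RUNX motif (TGTGGT, or ACCACA on the other strand), given in capitals. It covers chrX:55220096-55220395 of RefSeq's GRCh38.p14 annotation, plus strand, from 250 bases before to 50 bases after the start, and the match begins 110 bases before the start.
PAGE5: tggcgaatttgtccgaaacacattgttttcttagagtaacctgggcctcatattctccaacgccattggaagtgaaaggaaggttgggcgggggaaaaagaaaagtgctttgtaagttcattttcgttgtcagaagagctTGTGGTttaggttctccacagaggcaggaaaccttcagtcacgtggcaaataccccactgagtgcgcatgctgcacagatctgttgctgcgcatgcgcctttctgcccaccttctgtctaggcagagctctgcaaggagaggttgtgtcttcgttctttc
Either string occurs in 13.1% of the 27305 promoters of the same length in that table and in 9.99% of the 10936 of tested genes. A match is therefore a description of the letters only. MAGEA1, CTAG2, CT47A7 and CT45A3 had no entry.

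CTAG2, which encodes the LAGE-1 antigen, read 53.5, 60.3 and 48.1 in wild type and 3431, 3452 and 3548 in AE9a cells, at least 40.4-fold higher (limma adjusted p = 2.7e-13). MAGEA1, of the MAGE family of melanoma antigens, read 55.4, 51.7 and 54.3 in wild type and 2118, 2195 and 2508 in AE9a cells, at least 26.9-fold higher. PAGE1 was at least 33.3-fold, RHOXF2B, a reproductive homeobox gene, at least 34.5-fold, CT55 at least 24.7-fold and CT47A7 at least 23.2-fold higher. In each of these genes all 3 wild type arrays lay below the olfactory receptor level. VCX3B rose by 6.13, VCX3A by 6.04 and CT45A3 by 4.60 log2 units. MAEL on chromosome 1, which takes part in transposon silencing in germ cells, was at least 22.5-fold higher. The VCX, PAGE, CT45A, CT47A and RHOXF2 genes have near-identical copies, so which copy a probe read is uncertain. Dimmer CT55 probes were called at 3.24 and 0.85 log2 units, while another was not called (0.01, limma adjusted p = 0.96).

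The list of cancer-testis and germline genes was mostly higher. Of 27 listed genes 23 were tested, 18 (78.3%) rose and 0 fell, where 14.6% of all genes rose and 16.2% fell. The median of the tested members was 1.39 log2 units against -0.01 over all genes. Members with the smallest adjusted p were PAGE1, CTAG2, MAGEA1 and PAGE5. The 5 that were not called, CTAG1B, MAGEA4, XAGE1B, SYCP3 and DDX4, named after their values were seen, had differences between -0.08 and 0.07, and all were above the olfactory receptor level on at most 1 of the 6 arrays. The number of risers was 18 under every alternative setting run.

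**Figure D2:**
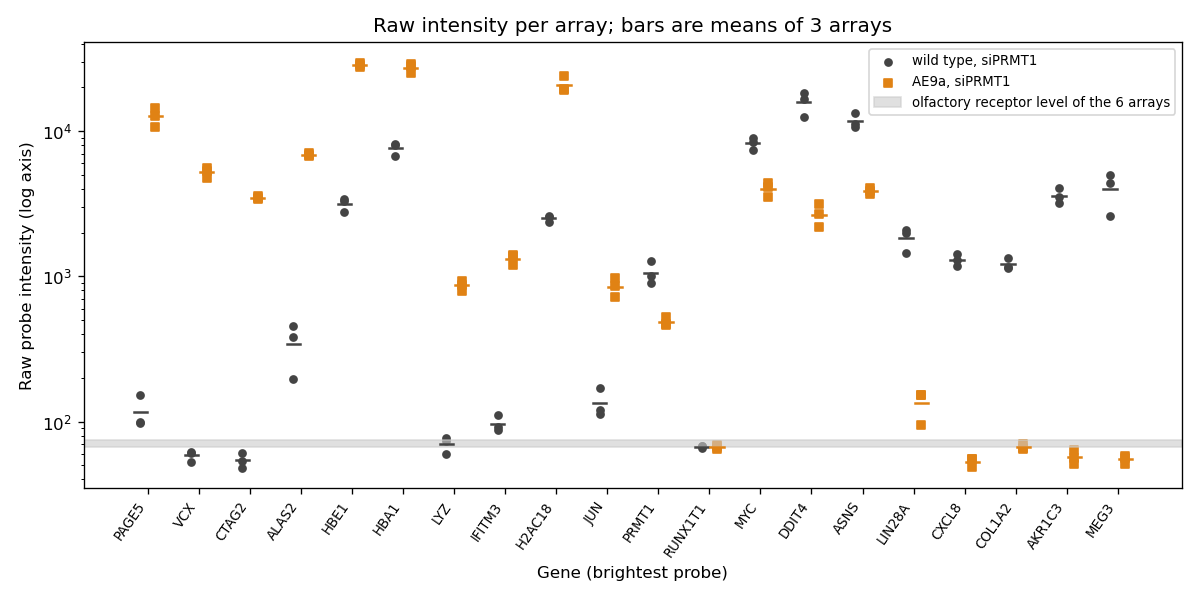
Raw probe intensity on a log axis for 20 genes, with circles for the 3 wild type and squares for the 3 AE9a siPRMT1 arrays, bars for their means and a grey band for the olfactory receptor level (66.7 to 74.2). In wild type cells VCX and CTAG2 sit below the band and PAGE5 a little above it, and in AE9a cells all 3 sit at 3431 or more, CXCL8, AKR1C3 and MEG3 lie below the band in AE9a cells and far above it in wild type cells, while RUNX1T1 stays in or just below the band in both lines.

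Genes of hemoglobin and heme were also among the rises. ALAS2, the erythroid enzyme that starts heme synthesis, read 196, 381 and 456 in wild type and 6826, 6739 and 7028 in AE9a cells. It was far brighter in each AE9a array, 4.33 ± 0.29 log2 units or 20.1-fold (limma adjusted p = 7.4e-08). HBE1, the embryonic beta-like globin, read 3294, 2786 and 3390.3 in wild type and 28303, 29594 and 27736 in AE9a cells, a rise of 3.21 ± 0.11 log2 units (limma adjusted p = 5.8e-11). AHSP, the chaperone of free alpha globin, read 156, 126 and 124 in wild type and 1239.5, 1056 and 1099 in AE9a cells, a rise of 2.94 ± 0.12.

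Among the 10 tested genes of the hemoglobin list 6 (60%) rose and 0 fell, where 14.6% of all genes rose and 16.2% fell. The median was 0.88 log2 units. HBA1 rose by 1.85 ± 0.15 and HBD, a minor adult globin, by 1.49 ± 0.32 log2 units, and HBA1 and HBA2 share most of their sequence, so their probes may read both. The fetal globins HBG1 and HBG2, the adult HBB and HBQ1, named after their values were seen, were not called, with differences between -0.10 and 0.14. The summed raw signal of the 11 hemoglobin list genes on the array was 113573 to 125426 in wild type and 184781 to 191439 in AE9a arrays. Heme synthesis moved less evenly: of 9 tested genes 3 (33.3%) rose and 1 (11.1%) fell, with a median of 0.23. PPOX and FECH, the last 2 enzymes of the path, rose by 1.19 ± 0.21 and 0.96 ± 0.16 log2 units. UROS, an earlier enzyme, fell by 0.70 ± 0.14 (limma adjusted p = 0.0015).

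Red cell surface genes moved in the same direction as the globins, with exceptions. Of 15 tested genes 10 (66.7%) rose and 2 (13.3%) fell, against 14.6% and 16.2% of all genes. The median was 0.69 log2 units. RHCE, an Rh blood group protein, rose by 3.53 ± 0.14 log2 units. RHD, the other Rh protein, read 64.4, 68.8 and 67.8 in wild type and 551, 573 and 511 in AE9a cells, at least 6.7-fold higher, and the close similarity of both Rh genes leaves the probe's target uncertain. ICAM4, the Landsteiner-Wiener blood group protein, rose by 1.69 ± 0.12. A dimmer ICAM4 probe was also called higher (1.25), while another was not called (-0.03). ADD2, a membrane skeleton adducin, read 592, 566 and 505 in wild type cells and 66.7, 64.0 and 62.9 in AE9a cells, where no array passed the olfactory receptor level. It was at least 6.48-fold lower (limma adjusted p = 5.1e-09). CD36, the other gene that fell and named for that after its values were seen, had a difference of -1.48.

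The transcription factors of these lineages did not share one direction. Of 17 tested erythroid and megakaryocyte factors 2 rose and 3 fell, with a median of -0.06, close to the share of all genes. MYB, a progenitor factor, fell by 1.53 ± 0.12 log2 units, from 7304, 6533 and 7547 in wild type to 2313, 2141 and 2839 in AE9a cells. The AE9a values lay far below all wild type values (limma adjusted p = 5.0e-07). LMO2, a bridging protein of the GATA1 and TAL1 complex, fell by 1.16 ± 0.16 and NFE2, a globin gene activator, by 0.65 ± 0.12. TAL1 rose by 0.74 ± 0.14. Among iron genes 2 of 13 (15.4%) rose and 2 (15.4%) fell (median -0.16), near the 14.6% and 16.2% of all genes. The iron exporter SLC40A1 fell by 1.95 ± 0.20 and TFR2, an iron sensor, by 1.07 ± 0.21. NCOA4, which carries ferritin to lysosomes, rose by 0.70 ± 0.16. SLC11A2, the iron importer DMT1, was called at 0.72 ± 0.23, a call lost when wild type array 3 or any AE9a siPRMT1 array was left out (adjusted p from 0.0534 to 0.137).

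Single megakaryocyte genes were called. Of 11 tested genes 2 (18.2%) rose and 1 (9.09%) fell (median 0.02), near or below the shares of all genes, 14.6% and 16.2%. ITGA2B, the platelet integrin, read 68.9, 64.2 and 60.5 in wild type and 106, 114 and 103 in AE9a cells, at least 1.46-fold higher and dim throughout. TUBB1, the platelet tubulin, rose by 1.35 ± 0.20 log2 units. THBS1 was called as at least 1.3-fold lower, on dim values and with the call lost when wild type array 1 or AE9a array 1 or 2 was left out (adjusted p from 0.0508 to 0.0763).

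Of the myeloid genes, LYZ stood out. LYZ, the lysozyme of granulocytes and monocytes, read 77.0, 73.1 and 60.0 in wild type and 879, 799 and 928 in AE9a cells. It went from about the olfactory receptor level to a clear signal in every AE9a array, a rise of 3.42 ± 0.16 log2 units (limma adjusted p = 1.6e-09). The rest of the list did not follow: of 14 tested granulocyte and monocyte genes 2 (14.3%) rose and 0 fell (median 0.05). Over all genes 14.6% rose and 16.2% fell. CYBB, the other called gene, was dim, at 0.31 ± 0.09 log2 units, and lost its call when wild type array 2 or AE9a array 2 or 3 was left out (adjusted p from 0.0684 to 0.101). The list's summed raw signal overlapped between lines, 3216 to 6961 in wild type and 5488 to 9499 in AE9a arrays.

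The C/EBP factors and PU.1 that drive myeloid differentiation, several of which AML1-ETO is known to repress, gave mixed values. SPI1, which encodes PU.1, read 166, 152 and 141 in wild type and 266, 233 and 220.3 in AE9a cells, a rise of 0.63 ± 0.12 log2 units without overlap (limma adjusted p = 0.0015). CEBPG fell by 1.06 ± 0.12, and CEBPB was not called at -0.38 ± 0.16 (adjusted p = 0.095). CEBPA was called at 0.40 ± 0.13, from 68.0, 77.7 and 83.7 in wild type to 110.1, 96.9 and 98.4 in AE9a cells, but lost the call without wild type array 1 or 2 or any AE9a siPRMT1 array (adjusted p from 0.0514 to 0.137). Of 7 tested members 2 (28.6%) rose and 1 (14.3%) fell, against 14.6% and 16.2% of all genes.

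Of 14 progenitor list genes on the array, 7 passed the olfactory receptor level on none of the 6 arrays and 2 on all 6. Their summed raw signal was 1659 to 1930 in wild type and 1472 to 1491 in AE9a arrays. KIT, the stem cell factor receptor, fell by 1.31 ± 0.16 log2 units. It read 234, 178 and 220.3 in wild type and 62.0, 76.4 and 79.7 in AE9a cells. MECOM, which encodes the transcription factor EVI1, was at least 1.74-fold lower, below the olfactory receptor level in AE9a cells. Of 8 tested genes of this list 1 (12.5%) rose and 2 (25%) fell, against 14.6% and 16.2% of all genes. The riser, CD34, read 68.9, 62.8 and 60.1 in wild type and 79.4, 86.8 and 64.8 in AE9a cells. It lost its call without wild type array 2 or 3 or AE9a array 1 or 2 (adjusted p from 0.081 to 0.129). Another CD34 probe was not called (0.03). Markers of other cell types were near background, with 3 exceptions. CD3D of the T cell list read 669.5, 2874 and 2398 in wild type and 1029, 996 and 771 in AE9a cells. These values overlapped widely. In limma 0 of 7 tested T cell genes was called, and 1 had an unadjusted p under 0.05. The epithelial gene EPCAM fell by 0.67 ± 0.13, and the fibroblast collagen gene COL1A2 fell as given below. The 7 B cell genes summed to 445.5 to 492.7 in wild type and 460.3 to 491.5 in AE9a arrays. CD79B was called at 0.58 ± 0.12, while its dimmer probes were not (-0.02 and 0.04). The 7 endothelial genes summed to 355 to 399 in wild type and 359 to 376 in AE9a arrays. The part of any admixed cell in the results was not tested.

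MEG3 and EPHB6 were among the steep falls. MEG3, a maternally expressed long noncoding RNA of the imprinted DLK1-DIO3 locus, read 4386, 5001 and 2582 in wild type and 56.2, 58.3 and 50.7 in AE9a cells. All AE9a values were below the olfactory receptor level and all wild type values far above it, at least 44.3-fold lower in AE9a (limma adjusted p = 3.6e-08). EPHB6, a receptor of the Eph family without kinase activity, read 813, 1047 and 1350.5 in wild type and 94.7, 98.1 and 82.5 in AE9a cells, a fall of 3.26 ± 0.26 log2 units (limma adjusted p = 3.9e-07). Among the largest falls COL1A2, LIN28A and COBL had no promoter entry. MEG3 and EPHB6 were the first whose entry holds the RUNX core letters, in capitals below. The MEG3 stretch is chr14:100825858-100826157 and the EPHB6 stretch chr7:142862506-142862805, both on the plus strand of GRCh38.p14 as in RefSeq. The matches begin 216 and 89 bases before the start sites.
MEG3: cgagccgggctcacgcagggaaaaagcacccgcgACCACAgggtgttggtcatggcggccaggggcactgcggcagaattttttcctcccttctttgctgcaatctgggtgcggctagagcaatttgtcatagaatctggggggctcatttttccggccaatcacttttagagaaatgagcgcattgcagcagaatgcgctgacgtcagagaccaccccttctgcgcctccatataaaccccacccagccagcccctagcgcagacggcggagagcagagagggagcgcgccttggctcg
EPHB6: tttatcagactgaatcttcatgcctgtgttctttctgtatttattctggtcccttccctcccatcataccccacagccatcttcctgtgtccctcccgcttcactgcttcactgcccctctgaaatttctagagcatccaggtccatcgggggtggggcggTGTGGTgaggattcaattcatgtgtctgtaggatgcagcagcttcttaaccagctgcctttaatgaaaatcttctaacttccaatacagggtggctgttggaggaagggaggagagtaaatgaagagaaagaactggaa

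AKR1C3, an aldo-keto reductase of steroid and prostaglandin metabolism, read 4069.9, 3186 and 3516 in wild type and 63.4, 55.9 and 51.3 in AE9a cells. It was lost to background in every AE9a array, at least 41.3-fold lower (limma adjusted p = 5.2e-13). Its relatives AKR1C4 and AKR1C2 fell by 2.85 ± 0.24 and 2.28 ± 0.27 log2 units, and since the AKR1C genes are close copies their probes may share signal. For AKR1C2 wild type array 1 read 5069 against 2147 and 2489 in the other two, and a dimmer probe was not called (0.12). Of the 15 tested AKR1 reductases and NRF2 targets 7 (46.7%) fell and 0 rose, against 16.2% and 14.6% of all genes. Their median was -0.60, and TKT, of the pentose phosphate path, fell by 0.76 ± 0.10.

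CXCL8, the neutrophil attractant interleukin-8, read 1289, 1431 and 1183 in wild type and 55.4, 55.6 and 48.3 in AE9a cells, at least 15.1-fold lower (limma adjusted p = 8.9e-11). Other chemokines of the NF-kappaB list fell from lower levels. CXCL1 was at least 1.32-fold and CXCL2 at least 1.48-fold lower, and IL6 fell by 0.95 ± 0.15 log2 units. Of 12 tested genes 6 (50%) fell and 0 rose, where 16.2% of all genes fell and 14.6% rose. The median was -0.40. The surface glycoprotein CD44 fell by 2.52 ± 0.26 log2 units. It read 1079, 661 and 557 in wild type and 92.3, 112 and 131 in AE9a cells. A dimmer CD44 probe was also called lower (-0.99), while another was not called (-0.17, limma adjusted p = 0.075).

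The remaining steep falls were spread over functions. COL1A2, a chain of type I collagen, read 1152, 1339 and 1136 in wild type and 66.0, 70.3 and 64.8 in AE9a cells, at least 14-fold lower. LIN28A, which blocks maturation of let-7 microRNAs, read 1444, 1974 and 2084 in wild type and 152, 153 and 94.6 in AE9a cells, a fall of 3.57 ± 0.24 log2 units (limma adjusted p = 7.1e-08). APOE, a lipid carrier, fell by 3.35 ± 0.34. None of these values overlapped between the lines, which the rule for choosing the largest falls required. SLC16A9, a transporter of the monocarboxylate family, was at least 10.9-fold lower, COBL, an actin nucleator, at least 11-fold, TDO2, which degrades tryptophan, at least 7.23-fold and GCA, the calcium-binding grancalcin, at least 5.63-fold. PCED1B fell by 3.40 ± 0.15, STC2, a secreted glycoprotein, by 3.01 ± 0.18 and LINC00623 by 3.72 ± 0.13, the last on 1 of 2 probes (0.11 on the dimmer one). Among the LIN28 oncofetal and imprinted genes 5 of 11 (45.5%) fell and 1 (9.09%) rose (median -0.36), against 16.2% and 14.6% of all genes. IGF2BP3, an oncofetal RNA-binding protein, fell by 0.79 ± 0.14. H19, the riser and named for that after its values were seen, had a difference of 1.51.

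Further rises outside these lists included ADGRG1 and CFAP95. ADGRG1, the adhesion receptor GPR56, read 62.9, 71.0 and 65.3 in wild type and 1658, 1412 and 1190.4 in AE9a cells, at least 16.7-fold higher (limma adjusted p = 1.8e-11). CFAP95, named as a cilia and flagella protein, read 91.2, 66.7 and 62.2 in wild type and 2284, 2264 and 824 in AE9a cells, with AE9a array 3 far below the other two but above every wild type array. JUN, a subunit of AP-1, rose by 2.57 ± 0.16 log2 units. It read 171, 112 and 121 in wild type and 969.5, 858 and 721 in AE9a cells, without overlap. Of 20 tested immediate early genes 2 (10%) rose and 3 (15%) fell, against 14.6% and 16.2% of all genes.

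Interferon-stimulated genes were split. IFITM3, a membrane protein that limits virus entry, read 91.3, 111 and 87.6 in wild type and 1395, 1189 and 1382 in AE9a cells, a rise of 3.59 ± 0.13 log2 units (limma adjusted p = 9.1e-11). IFITM2, a close copy, rose by 3.54 ± 0.14, and the IFITM probes may read each other's RNA. IFI35 and the regulator IRF7 fell by 1.25 ± 0.14 and 0.69 ± 0.13. In all 5 of 21 tested genes rose and 4 fell, with a median of 0.01. The peptide transporters of class I antigen presentation, TAP2 and TAP1, fell by 1.87 ± 0.14 and 1.58 ± 0.33. In their list 3 of 13 (23.1%) fell and 1 (7.69%) rose (median -0.11). The riser, B2M, was called at 0.47 ± 0.12 and lost the call without AE9a array 3 (adjusted p = 0.0556). Of 5 tested class II genes limma called 0, with 1 at an unadjusted p under 0.05. S100A6 and S100A4, small calcium-binding proteins, fell by 1.95 ± 0.30 and 1.14 ± 0.20, and S100A16 was at least 1.63-fold lower. Of 10 tested S100 genes 3 (30%) were lower and 0 higher (median -0.16).

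Histone genes rose together. H2AC18, a replication-dependent H2A gene, read 2365, 2565 and 2604 in wild type and 24119, 19186 and 19356 in AE9a cells, a rise of 3.09 ± 0.12 log2 units (limma adjusted p = 2.4e-10). H2AC20 read 636, 745 and 757 in wild type and 8323, 7772 and 7278 in AE9a cells, a rise of 3.44 ± 0.13, and H3C4 rose by 2.08 ± 0.16 and H1-2 by 1.18 ± 0.10. All AE9a arrays lay above all wild type arrays for each of these 4. H2AJ, a variant H2A gene, rose by 3.48 ± 0.15 and H2AC19, a near-identical copy of H2AC18, by 3.13 ± 0.18. Of 33 tested replication-dependent histone genes 25 (75.8%) rose and 0 fell, where 14.6% of all genes rose and 16.2% fell. The median was 0.87, and 23 to 25 rose in every alternative setting run.

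DNA replication genes moved upward less evenly. E2F2, a transcription factor of S phase entry, read 871, 652 and 727 in wild type and 1962, 1991 and 1988 in AE9a cells, a rise of 1.45 ± 0.13 log2 units (limma adjusted p = 2.2e-06). PCNA, the polymerase clamp, rose by 1.08 ± 0.13, CDC45, of the replicative helicase, by 0.75 ± 0.10 and ORC1, of the origin complex, by 0.71 ± 0.15. Of 29 tested G1/S genes 8 (27.6%) rose and 3 (10.3%) fell (median 0.27). Of 30 G2/M genes 9 (30%) rose and 5 (16.7%) fell (median 0.14), with CENPE and TOP2A lower by 0.88 and 0.61. Over all genes 14.6% rose and 16.2% fell. Among inhibitors of growth, RBL2, a pocket protein, fell by 1.29 ± 0.12, CDKN1C by 1.75 ± 0.31 and BTG1 by 0.89 ± 0.14, while GADD45A rose by 0.88 ± 0.11. CDKN1A, which encodes p21, read 939, 734 and 756 in wild type and 1393, 1226 and 1334 in AE9a cells. Those values did not overlap, yet the difference of 0.74 ± 0.33 did not pass (limma adjusted p = 0.12). This SE pools the spread within all 4 groups, and the wild type control arrays spread widest, at 698, 353 and 1429. CDKN1A was called in 3 of 20 alternative settings. Chromatin regulators included a rise of EZH2, the H3K27 methyltransferase, by 1.32 ± 0.16, of DNMT3B, a DNA methyltransferase, by 0.80 ± 0.12 and of SUV39H1, an H3K9 methyltransferase, by 0.81 ± 0.11, and a fall of the Polycomb reader CBX7 from 259.6, 296 and 257 in wild type to 125, 132 and 113 in AE9a cells. A dimmer EZH2 probe was also called higher (1.22) and another was not called (0.10). Of 19 tested regulators 5 (26.3%) rose and 3 (15.8%) fell.

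Under siPRMT1 MYC was lower in AE9a cells while genes for making ribosomes did not follow it. MYC read 8385, 7365 and 8967 in wild type and 4147, 3518 and 4369.8 in AE9a cells, a fall of 1.04 ± 0.13 log2 units without overlap (limma adjusted p = 3.4e-05). Of 25 tested genes of ribosome biogenesis and MYC targets, MYC included, 7 (28%) rose and 3 (12%) fell, with a median of 0.24. Over all genes 14.6% rose and 16.2% fell. MRTO4 and DKC1, which act in ribosomal RNA maturation, rose by 0.78 ± 0.18 and 0.45 ± 0.10, and BOP1, of the same process, fell by 0.57 ± 0.13. The number of risers ran from 2 to 9 across alternative settings. Under control siRNA 0 members of this list were higher and 14 lower in AE9a cells (median -0.40), against 16.3% and 17.1% of all genes. The test of the difference between siRNAs called 4 members higher and 0 lower, where 0.388% and 0.761% of all genes were. Of 41 tested cytosolic ribosomal proteins 9 (22%) fell under siPRMT1, near the 16.2% of all genes. Only 1 (2.44%) rose, against 14.6% (median -0.09). RPL23 was lower by 0.62, RPL27 by 0.54, RPL30 by 0.53 and RPS6 by 0.49.

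The arginine methyltransferases differed among themselves. PRMT3, which methylates a ribosomal protein, read 3398, 2532 and 2977 in wild type and 1535, 1770.5 and 1604 in AE9a cells, a fall of 0.80 ± 0.15 log2 units (limma adjusted p = 0.0014). PRMT5, the main enzyme of symmetric dimethylation, rose by 0.81 ± 0.14, from 1162, 959.5 and 1446 in wild type to 1946, 2000.1 and 2053 in AE9a cells, and its partner CLNS1A fell by 0.54 ± 0.12. Of 12 tested genes 6 (50%) fell, PRMT1 included, and 2 (16.7%) rose, with a median of -0.17. Over all genes 16.2% fell and 14.6% rose. Under alternative settings 3 to 6 members fell and 1 or 2 rose.

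Some genes known from other cells as targets of AML1-ETO were called, at about the rate of all genes for the activated ones. POU4F1, a neural transcription factor raised in AML1-ETO leukemia, read 261, 142 and 128 in wild type and 396, 465 and 432 in AE9a cells, a rise of 1.33 ± 0.18 log2 units (limma adjusted p = 1.0e-04). JUP, the junction protein plakoglobin, fell by 0.57 ± 0.12. They were the 1 riser and 1 faller (11.1% each) among 9 tested activated targets (median -0.20), where 14.6% of all genes rose and 16.2% fell. Of 5 tested repressed targets 2 rose, SPI1 and CEBPA, and 1 fell, the drug exporter ABCB1, by 1.34 ± 0.15. ID1, an inhibitor of differentiation factors, read 1653, 1205 and 1085 in wild type and 1901, 1581 and 1661 in AE9a cells on its brightest probe, a difference of 0.44 ± 0.25 with a 95% interval of -0.10 to 0.99 (limma adjusted p = 0.24). A dimmer ID1 probe was called at 0.52 (adjusted p = 0.014). EGR1, a growth factor response gene, read 6213, 4825 and 4301 in wild type and 5139.5, 5861 and 2065 in AE9a cells, widely overlapping, with a difference of -0.34 ± 0.26 (adjusted p = 0.42). ID2 was called at -1.51 ± 0.47, with wild type array 1 at 1085 against 345 and 410 in the others. It lost the call without wild type array 1 or AE9a array 1 or 2 (adjusted p from 0.0869 to 0.137). A dimmer ID2 probe was not called (-1.10, limma adjusted p = 0.099). RUNX3 was called at -0.47 ± 0.13 and lost the call without wild type array 1 (adjusted p = 0.0643). Of 11 tested cofactors of AML1-ETO 1 (9.09%) rose, the deacetylase HDAC1 by 0.46 ± 0.11, and 0 fell.

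**Figure D3:**
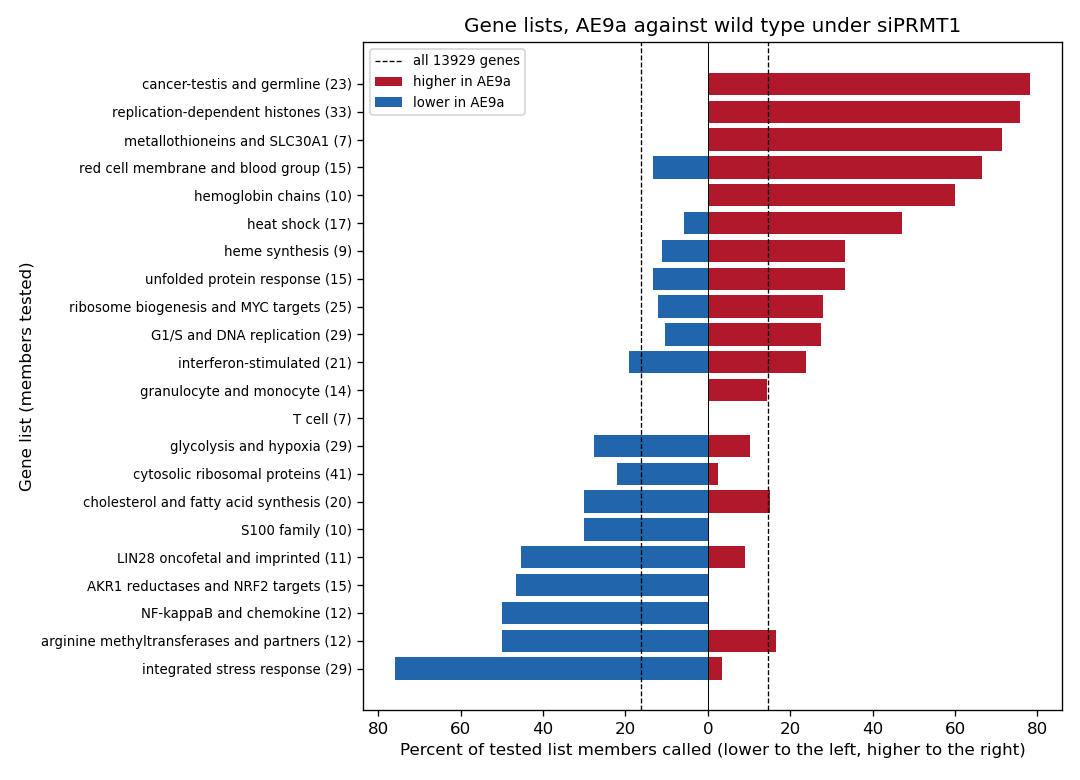
Bars give, for a selection from the 49 gene lists, the percent of tested members higher (right) or lower (left) in AE9a than in wild type under siPRMT1. Member counts are in parentheses, and dashed lines mark the 14.6% and 16.2% of all 13929 genes. Cancer-testis genes (78.3% higher) and histones (75.8% higher) stand at the top and the integrated stress response (75.9% lower) at the bottom.

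Genes of the integrated stress response, the ATF4 program that cells switch on when amino acids run short, were lower in AE9a cells. Of 29 tested members 22 (75.9%) fell and 1 (3.45%) rose, against 16.2% and 14.6% of all genes. The median was -0.79 log2 units, and 21 to 25 fell in every alternative setting run on these same arrays. DDIT4, an inhibitor of mTOR signalling, read 12577, 16558 and 18418 in wild type and 3131, 2675 and 2190.1 in AE9a cells, a fall of 2.62 ± 0.15 (limma adjusted p = 1.5e-08). ASNS, asparagine synthetase, read 11138, 10751 and 13422 in wild type and 4054, 3891 and 3688 in AE9a cells, a fall of 1.61 ± 0.11. CTH, which makes cysteine, read 942, 729 and 994 in wild type and 153, 161 and 150.1 in AE9a cells, a fall of 2.34 ± 0.16. The lines did not overlap for any of these genes. PHGDH, the entry enzyme of serine synthesis, fell by 1.27 ± 0.14 and INHBE, an inhibin subunit induced by stress, by 1.67 ± 0.24. GDF15, the member that rose and named for that after its values were seen, had a difference of 1.31.

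In this group the line difference depended on the siRNA. Under control siRNA, DDIT4 read 11701, 10462 and 13381 in wild type and 12827, 13381 and 12782 in AE9a cells, a line difference of 0.14 (limma adjusted p = 0.58). ASNS read 13047, 15957 and 12764 in wild type and 12746, 12469 and 12370.2 in AE9a cells there, and its line difference was -0.14 (adjusted p = 0.43). INHBE read 428, 591 and 904 in wild type and 1692, 1728 and 1469.9 in AE9a cells, a rise of 1.41 in AE9a cells. Its direction thus turned between the siRNAs, and PHGDH turned too, from 0.65 under control siRNA to -1.27. The test of the difference itself, in limma with all 12 arrays, gave -2.76 ± 0.21 log2 units for DDIT4 (adjusted p = 4.3e-05), -1.48 ± 0.16 for ASNS (adjusted p = 4.5e-04) and -3.08 ± 0.33 for INHBE (adjusted p = 5.3e-04). Of the 29 tested members 18 had a lower line difference under siPRMT1 by this test and 0 a higher one, where 0.761% of all genes were lower and 0.388% higher. Under control siRNA 8 members were higher and 2 lower in AE9a cells, where the shares of all genes were 16.3% and 17.1%.

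Over all genes the line difference was similar under both siRNAs, which use different arrays. Pearson's r between the 2 line differences across 13929 genes was 0.862 and Spearman's rank correlation 0.712, as a description, since genes are not independent replicates and the comparisons share the lines and the platform. Of the 4292 genes called under siPRMT1, 2978 (69.4%) were also called in the same direction under control siRNA, which is 64.1% of the 4644 called there, and 21 were called in opposite directions. The difference between siRNAs was called for 160 genes (1.15%), 54 (0.388%) in the higher and 106 (0.761%) in the lower direction. At probe level the 260 calls of this test became 94 without wild type siPRMT1 array 2, 111, 98 and 80 without AE9a control array 1, 2 or 3, and 143, 143 and 90 without AE9a siPRMT1 array 1, 2 or 3.

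**Figure D4:**
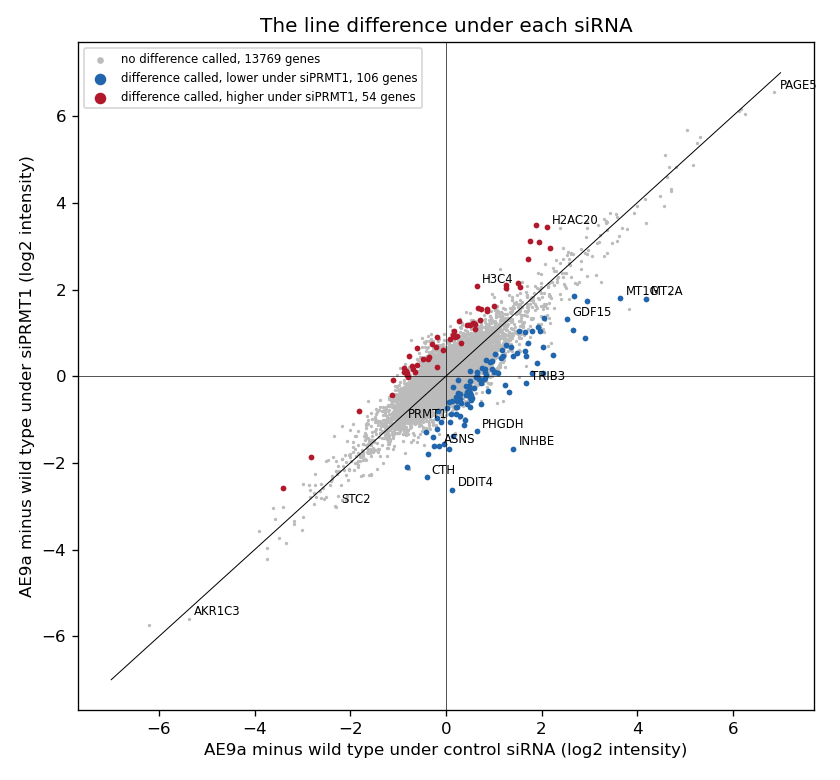
Each point is a gene, with the AE9a minus wild type difference under control siRNA on the horizontal axis and under siPRMT1 on the vertical axis, both in log2 intensity, and the diagonal marks equal differences. PAGE5 and AKR1C3 lie near the diagonal, DDIT4 and INHBE below it, and the 106 genes with a lower and 54 with a higher line difference under siPRMT1 are coloured.

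Under siPRMT1, a number of heat shock genes and metallothioneins were higher in AE9a cells. HSPA1A and HSPA1B, near-identical genes for inducible HSP70 whose probes may share signal, rose by 2.29 ± 0.26 and 2.48 ± 0.29 log2 units. HSPA1A read 3304, 1564 and 2329.5 in wild type and 11309.6, 9281 and 13127 in AE9a cells, with all AE9a values higher (limma adjusted p = 1.5e-05). HSPA6, a strictly inducible HSP70, rose by 2.17 ± 0.12 and CHORDC1, an HSP90 co-chaperone, by 1.07 ± 0.19. Of 17 tested heat shock genes 8 (47.1%) rose and 1 (5.88%) fell, with a median of 0.36, against 14.6% and 16.2% of all genes. Under control siRNA 3 were higher and 3 lower (median -0.09), and the test of the difference called 1 member higher and 0 lower. Under siPRMT1 the unfolded protein response of the endoplasmic reticulum gave 5 risers (33.3%) and 2 fallers (13.3%) among 15 tested (median 0.23). SDF2L1 and PDIA4 were higher by 0.91 and 0.89 and CANX, the chaperone calnexin, lower by 1.47.

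MT2A, a zinc-binding metallothionein, read 95.6, 192 and 194 in wild type and 599, 537 and 528 in AE9a cells under siPRMT1, a rise of 1.79 ± 0.34 log2 units (limma adjusted p = 0.0013). Under control siRNA it read 107, 372 and 229 in wild type and 4041, 3914 and 3917 in AE9a cells, a line difference of 4.19. MT1G read 53.6, 67.9 and 62.4 in wild type and 239, 242 and 234 in AE9a cells under siPRMT1, at least 3.03-fold higher in AE9a cells, and its line difference under control siRNA was 3.65. AE9a cells were thus higher under both siRNAs, by less under siPRMT1, and the test of the difference gave -2.40 ± 0.48 for MT2A (adjusted p = 0.035) and -1.85 ± 0.20 for MT1G (adjusted p = 4.5e-04). Of 7 tested genes of this list 5 (71.4%) rose and 0 fell under siPRMT1 (median 1.07), against 14.6% and 16.2% of all genes. Metallothionein genes are close copies whose probes may share signal, and MT1G and MT1H lay below the olfactory receptor level on all wild type siPRMT1 arrays.

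Called genes were unevenly spread over chromosomes, taken by gene identifier from RefSeq for 13890 of the tested genes. On the X chromosome 240 of 559 tested genes (42.9%) were higher and 38 (6.80%) lower in AE9a cells, against 14.6% and 16.2% of all genes, with a median of 0.22 log2 units under siPRMT1 and 0.28 under control siRNA. Of the 45 genes higher by 3 or more log2 units, 26 were on X. Among the 323 X genes brighter than the olfactory receptor level in all 6 arrays, 52.0% were higher and 7.12% lower, with a median of 0.43, against 16.4% and 19.6% of the 9506 genes that bright on all chromosomes. Without the 6 members of the cancer-testis list among them, PAGE5 included, 51.1% of 317 were higher and the median was 0.42. Chromosomes 15 and 18 also leaned higher, with 27.8% and 24.9% of genes higher and 5.29% and 4.66% lower. Chromosomes 4, 7 and 8 leaned lower, with 33.2%, 34.6% and 29.3% of genes lower and 3.85%, 9.58% and 5.70% higher. The medians there were -0.15, -0.14 and -0.12 under siPRMT1 and -0.14, -0.15 and -0.13 under control siRNA. DNA copy number of the lines was not analysed here, and its part in these shares was not tested.

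**Figure D5:**
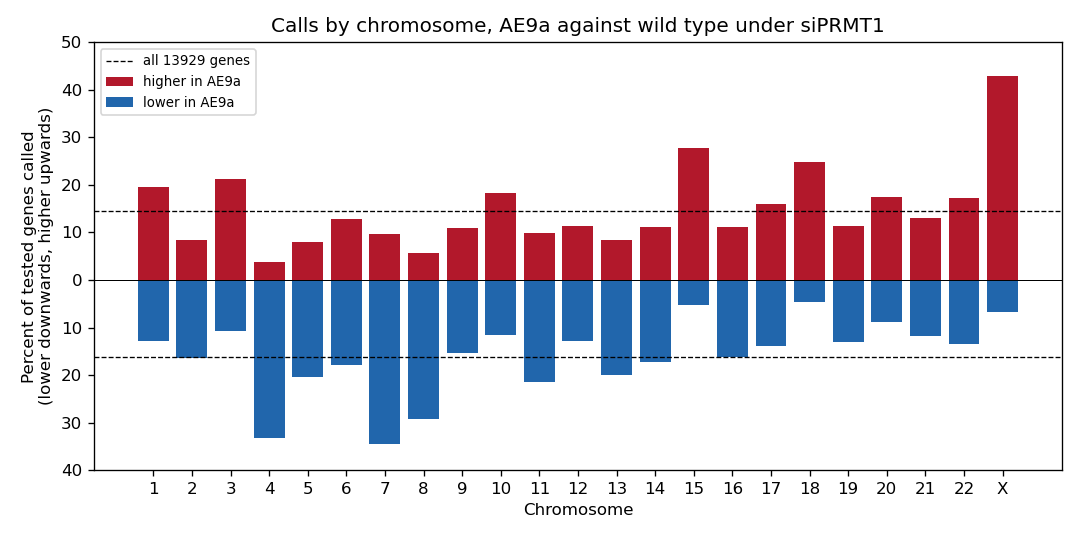
Bars give, per chromosome, the percent of tested genes that were higher (upward) or lower (downward) in AE9a than in wild type under siPRMT1, with dashed lines at the 14.6% and 16.2% of all genes. X has the tallest upward bar (42.9%), and chromosomes 7 (34.6%) and 4 (33.2%) have the longest downward bars.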

How the data were processed

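Total RNA of 12 K562 samples was read on Illumina BeadChips. The deposited table holds non-normalized intensity, 1 value per probe and array, and a processed intensity table, also deposited, served only as an alternative; per the submitters' processing notes GenomeStudio was used, with its settings not given in the sources used here. Groups came from the sample titles. Intensities were background-corrected with normexp (offset 50), quantile normalized over all 12 arrays and taken to log2 in limma 3.58.1 under R 4.3.3. Of 47231 probes, 28338 with a mean above the 40th percentile were tested with lmFit (1 mean for each of 4 groups) and eBayes with a trend, with two-sided p-values adjusted by Benjamini and Hochberg's method separately for 3 contrasts and called under 0.05. A gene is its brightest tested probe with exactly 1 symbol (30113 probes; 8 had several), and of 1389 called genes with more than 1 tested probe 658 were called the same way by all and 17 had a probe called the other way. The 95th percentile of 437 olfactory receptor probes stands in for background, in the absence of detection p-values. A group below it on all arrays has only a bound, given as "at least N-fold" against the higher, per array, of that level and the probe's own signal. The script was tested on simulated intensities.

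Genes named are PRMT1, RUNX1, RUNX1T1, ID1, EGR1 and CDKN1A, the 15 largest rises and 15 largest falls among called genes without overlap, up to 4 members of each of 49 gene lists with the smallest adjusted p, and up to 6 genes in each direction whose line difference differed most between siRNAs. Members and lists were chosen with earlier results of these data known. Their counts, and the stability of those counts across settings, therefore describe these arrays and are no independent test. The number of arrays limits the precision. A gene among the largest falls is not reported here.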

Additional observations from a re-analysis of the deposited data

Results flagged for a closer look

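The line difference under siPRMT1 differed from that under control siRNA for 160 genes, by the limma test of the difference itself. Among the named genes the following were called, with the difference of line differences (siPRMT1 minus control siRNA, log2 units ± SE).

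Stress and amino acid genes were lower: INHBE at -3.08 ± 0.33, DDIT4 at -2.76 ± 0.21, CTH at -1.93 ± 0.22, PHGDH at -1.91 ± 0.20, ATF3 at -1.50 ± 0.30, ASNS at -1.48 ± 0.16 and CEBPG at -1.14 ± 0.17. Metallothioneins were lower as well, though still higher in AE9a than in wild type cells under both siRNAs: MT2A at -2.40 ± 0.48, MT1E at -2.03 ± 0.18, MT1G at -1.85 ± 0.20, MT1H at -1.58 ± 0.13 and MT1F at -0.96 ± 0.18.

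BCL6, a transcriptional repressor, was at -1.75 ± 0.18, with a line difference of 2.24 under control siRNA and 0.49 under siPRMT1, the latter lost without wild type array 1 or AE9a array 1 or 2 (adjusted p from 0.0501 to 0.0546). TNFRSF10B, a TRAIL death receptor, was at -1.52 ± 0.19, PIM1, a survival kinase, at -1.13 ± 0.21, UROS at -0.93 ± 0.19, RBL2 at -0.88 ± 0.17 and ITGA2B at -0.67 ± 0.12.

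Histone genes were higher: H2AJ at 1.61 ± 0.21, H3C4 at 1.43 ± 0.22, H2AC19 at 1.37 ± 0.25, H2AC20 at 1.32 ± 0.18, H2AC18 at 1.14 ± 0.17 and H1-2 at 0.69 ± 0.14. NEFH, a neurofilament gene, was at 1.27 ± 0.28 (adjusted p = 0.049). Its line difference under siPRMT1 lost its call without wild type array 2 or AE9a array 3 (adjusted p of 0.116 and 0.11).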

How the results depend on the processing

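Probes called for the line difference under siPRMT1 numbered 7004 (3366 higher, 3638 lower), 7041 with the 6 siPRMT1 arrays alone and 6763 (3204 higher, 3559 lower) with median scaling. All settings run stayed within 1.5 times. Of 176 called named genes, 159 kept their call in all 20 alternatives that tested them, 17 lost it in at least 1 and 0 reversed. List medians moved by more than the members' array spread in 97 of 1029 recomputations, and 11 of 49 lists changed sign in at least 1. Median scaling turned the 3748 higher and 3808 lower probes under control siRNA into 4444 and 2806. The test between siRNAs was less stable. Its 260 probes (85 higher, 175 lower) became 38 higher and 282 lower with median scaling. The higher calls were 55 with a normexp offset of 16, 139 among probes that exceeded the olfactory receptor level in 3 or more arrays, and 153 of 403 calls with a replicate block. Leaving out 1 array at a time gave 80 to 348 calls, 16 to 110 higher and 64 to 238 lower. Why these counts moved was not tested. The labels state no pairing of arrays by replicate number, and the main fit used none. Deviations of same-numbered siPRMT1 arrays correlated at 0.0033, 0.312 and 0.372, where all pairs compared ran from -0.416 to 0.372. Of 6 arrays 4 correlated best with their own number. These few values do not settle whether arrays of one number belong together. The block gave 7510 calls under siPRMT1. Dim probes near the olfactory receptor level limit what can be read from low genes.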

Other observations

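Metabolic genes differed between the lines under siPRMT1 without one direction. SLC2A1, the glucose transporter GLUT1, read 2490.1, 2224 and 2262 in wild type and 5102, 4573 and 4840.2 in AE9a cells, a rise of 1.09 ± 0.10 log2 units. The glycolytic phosphofructokinases PFKM and PFKL fell by 1.11 ± 0.16 and 0.65 ± 0.12, and a dimmer PFKL probe was not called (0.02). EGLN3, an oxygen sensor, fell by 1.31 ± 0.11. Of 29 tested glycolysis and hypoxia genes 3 (10.3%) rose and 8 (27.6%) fell (median -0.16), against 14.6% and 16.2% of all genes. Under control siRNA 13 were higher and 2 lower in AE9a cells (median 0.39). The test of the difference between siRNAs called 0 members higher and 1 lower. In sterol synthesis SC5D and NSDHL rose under siPRMT1 by 1.59 ± 0.12 and 1.08 ± 0.12. MSMO1 and ACACA, the latter of fatty acid synthesis, fell by 1.47 ± 0.17 and 1.13 ± 0.10. In their list 3 of 20 (15%) rose and 6 (30%) fell (median -0.22). A dimmer MSMO1 probe was also called lower (-1.26), while another was not called (-0.13). Of 31 respiratory chain genes 4 (12.9%) rose, NDUFA1 by 0.79 ± 0.14 and NDUFA8 by 0.51 ± 0.12 among them. As many (12.9%) fell, including COX6C by 0.44 ± 0.09, and both shares were below those of all genes.

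Single genes of cell surface and survival were called, where 14.6% of all genes were higher and 16.2% lower. ICAM2 and the integrin gene ITGB5 rose by 1.34 ± 0.15 and 0.71 ± 0.14 log2 units and ITGA5, a fibronectin receptor subunit, fell by 1.20 ± 0.17, in a list of 15 tested adhesion genes with 3 (20%) higher and 3 (20%) lower. TNFRSF10B, a TRAIL receptor, fell by 1.37 ± 0.13. It read 582, 663 and 793 in wild type and 234, 241 and 239.9 in AE9a cells. A dimmer TNFRSF10B probe was also called lower (-0.56), while another was not called (-0.06). Of 25 tested apoptosis genes 4 (16%) rose and 3 (12%) fell. PIM1, a STAT5 target, fell by 1.41 ± 0.15, and SOCS1, a feedback inhibitor of cytokine signalling, by 0.92 ± 0.20, among 12 tested STAT5 targets with 2 (16.7%) higher and 3 (25%) lower. In the Wnt list 3 of 12 genes (25%) rose and 4 (33.3%) fell. AXIN2, a feedback target, rose by 0.75 ± 0.09, LEF1, a transcription factor, fell by 0.71 ± 0.15 and the receptor FZD2 was at least 1.52-fold lower. VIM and LMNB2, of the intermediate filaments, fell by 0.69 ± 0.15 and 0.79 ± 0.13, and NES, a progenitor filament, rose by 0.91 ± 0.16.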
